A study of Mus musculus with 26 samples.

Results

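Ribosome footprints of NIH3T3 cells exposed to H2O2 for 7 h were compared directly with footprints of the same cells exposed to H2O2 for 2 h. The comparison was set by the labels and used no measured value. It rested on 4 of the 26 libraries of the study, 2 at each time, and covered 19941 gene symbols, of which 10545 had enough counts to be tested. NIH3T3 is an established line of mouse embryonic fibroblasts, and no genetic change is named in the labels. The labels give the agent (H2O2) and the time of exposure, while the dose was not stated in the labels. The study exposed these cells to heat, H2O2 or KCl and sequenced RNA and footprints, to follow transcription that runs past the end of a gene into its neighbour. Control footprints (no stress, 2 libraries, shared by H2O2 and KCl), RNA of the same H2O2 groups (2 libraries at each time) and KCl footprints at 2 h and 7 h (2 libraries each) were used beside the 4 libraries.

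Ribosome profiling sequences the stretch of mRNA that a ribosome protects from nuclease, so the footprints of a gene count ribosomes on its mRNA and follow both the amount of the mRNA and how densely it is read. H2O2 oxidises proteins, lipids and DNA. In fibroblasts it is known to activate the antioxidant regulator NRF2, the integrated stress response, which slows initiation through phosphorylation of eIF2, and p53, which is stabilised after DNA damage and induces genes of arrest, death and repair. Signalling through the kinase mTOR controls translation of TOP mRNAs, which begin with a run of pyrimidines and encode ribosomal proteins and other translation proteins.

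The 2 libraries at 2 h differed in depth, with 1460751 expected counts in replicate 1 and 5168537 in replicate 2. The libraries at 7 h held 3171340 and 3326692, and the control 3925402 and 3603755. Levels are given as CPM, counts per 1000000 after TMM scaling, which adjusts for library size and composition. One CPM stood for 1.499 and 5.16 counts at 2 h and for 3.51 and 3.47 counts at 7 h, so a low gene was measured least precisely in replicate 1 at 2 h. Replicates correlated across genes with r of 0.956 at 2 h and 0.978 at 7 h (log2 CPM; genes are not independent replicates), against 0.971 to 0.975 in the other footprint groups. No replicates were identical, and each pair differed by more than counting noise. Replicates are those the labels name. Nothing says that they came from separate cultures, so the p-values measure the spread between these libraries, which may be technical. The H2O2 RNA libraries were deeper than any footprint library. All 10 fibroblast markers were present, and 6 of 21 markers of other cell types were at 0 in all 4 libraries (among them the immune markers Ptprc, Adgre1 and Cd3e, the muscle marker Myod1 and the neural marker Snap25). In bulk samples fewer cells of a type and less RNA per cell cannot be told apart.

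Between 2 h and 7 h of H2O2 the footprints of 3139 of 10545 genes differed (quasi-likelihood test of edgeR with p adjusted by Benjamini-Hochberg and under 0.05, termed called below), which is 29.8% of the genes tested. Of these, 1967 were higher at 7 h (18.7%) and 1172 were lower (11.1%). The 2 libraries at 7 h did not overlap with those at 2 h for 6879 genes (65.2%), including 3138 of the 3139 called. RNA of the same groups changed for 9730 of 13256 genes (73.4%), with 4946 higher (37.3%) and 4784 lower (36.1%). Across 10480 genes the footprint and RNA differences followed each other with r = 0.841. Of the 1967 genes with higher footprints, 1779 were also called higher in RNA, 27 were called lower and 161 were not called. Of the 1158 genes with lower footprints and an RNA test, 988 were called lower in RNA, 27 higher, and 143 were not called.

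The number of calls moved with single libraries and with the scale. Leaving out replicate 1 at 7 h left 1828 calls (1228 higher, 600 lower), and leaving out replicate 2 at 7 h left 1871 (1225 higher, 646 lower). Without the shallow replicate 1 at 2 h there were 2518 calls and without the deep replicate 2 at 2 h 2431, while 1300 calls (923 higher, 377 lower) were made whichever of the 4 libraries was left out. With all 4 libraries thinned to the depth of the shallowest, 2627 genes were called (1636 higher, 991 lower), of which 2485 were among the 3139. On log2(TPM + 1), which has no correction for library composition, the direction split was 2316 higher and 672 lower (77.5% higher, against 62.7% with TMM) and the median of all genes stood at 0.19 in place of 0.02. Changes below are on the TMM scale, and lists whose median changes sign on the TPM scale are named as such.

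**Figure D1:**
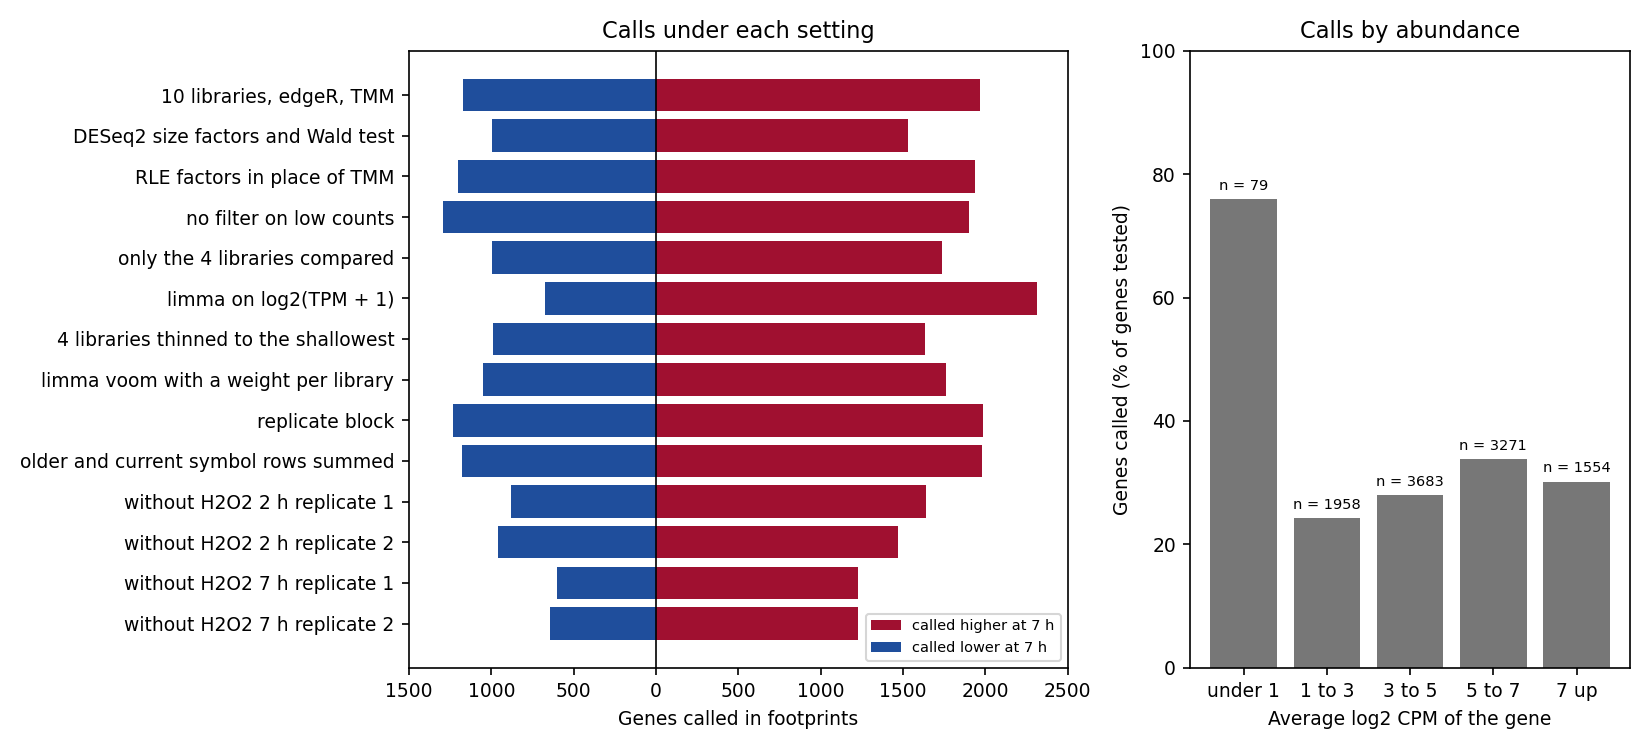
Left: number of genes called higher (red, to the right) and lower (blue, to the left) at 7 h against 2 h under each setting, on a linear axis. Right: percentage of tested genes called, by average log2 CPM of the gene, with the number of genes tested above each bar. The shortest pair of bars on the left is that without replicate 1 at 7 h. On the right, 24.3% were called between 1 and 3 log2 CPM, 33.8% between 5 and 7 and 30.2% from 7 up.

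The standard error was smaller in more abundant genes, while the share called did not rise throughout. Genes with an average log2 CPM between 1 and 3 had a median of 6 counts in replicate 1 and 20 counts in replicate 2 at 2 h, a median standard error of 0.54 on the log2 scale, and 24.3% of 1958 genes called. Those between 5 and 7 had a median standard error of 0.23 and 33.8% of 3271 called. Genes from 7 up had a median standard error of 0.20 and 30.2% of 1554 called. The 79 genes under 1 were called in 75.9%, since a gene so low passed the filter through the group in which it is high.

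The largest rises belonged to mRNAs that had almost no footprints at 2 h. Tbc1d8, of a family of GTPase-activating proteins for Rab, was at 0 and 0.194 CPM at 2 h and at 64.3 and 63.9 CPM at 7 h. With 1 footprint count over both 2 h libraries, the ratio of counts after scaling was 427 (95% exact interval 76.2 to 16896, counting error only). Rasl11a, a small GTPase of the Ras family, was at 0 and 0.194 CPM at 2 h and at 44.7 and 66.0 CPM at 7 h, a ratio of 368 (65.6 to 14563). For both genes every 7 h library stood far above every control library. That it stood above every 2 h library was a condition of the choice. Genes so low at 2 h passed the count filter through other groups. Arhgef4, a guanine nucleotide exchange factor for small GTPases, had a ratio of 304 (54.2 to 12042) and Mab21l3 of 281 (50.1 to 11138), each from 1 count at 2 h. Tnfrsf18, a receptor of the TNF family, had a ratio of 179 (49.2 to 1484) from 2 counts. Nipal4 had a ratio of 110.2 (37.4 to 537) and Palm3, of the paralemmin family, of 85.4 (28.9 to 417), each from 3 counts. These 7 genes were also called higher in RNA.

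Genes with a few more counts at 2 h showed the same order of change. Jag2, a Notch ligand, was at 0 and 0.970 CPM at 2 h and at 160.3 and 151 CPM at 7 h, a log2 change of 7.65 (SE 0.40, edgeR adjusted p 1.74e-07). Evpl, which encodes envoplakin of the desmosome and cornified envelope, went from 3.33 and 0.582 CPM to 147 and 183 CPM, a log2 change of 6.99 (SE 0.51, edgeR adjusted p 1.37e-06). Abcb1a, the drug efflux pump P-glycoprotein, went from 0.667 and 1.36 CPM to 147 and 126 CPM, a log2 change of 6.80 (SE 0.44, edgeR adjusted p 8.88e-07). Jag2 had all its 2 h counts in replicate 2, and without that replicate its fitted value was 11.93, which is no bound. In each of the 3 the replicates of a time lay close together relative to the distance between times, and the control libraries lay with those at 2 h. The potassium channel gene Kcnj4 rose by 6.42 (SE 0.57). RNA of Jag2, Evpl and Abcb1a rose by 5.11, 4.66 and 3.89. The ratio of footprints to RNA of these 3 genes rose too, by 2.61 (edgeR adjusted p 0.00355), 2.45 (0.0119) and 2.97 (0.00312). They were named for their footprint rise, which is part of the ratio. The ratio of Kcnj4 (0.81) was not called, nor were those of Tbc1d8, Rasl11a, Mab21l3, Tnfrsf18, Nipal4 (-0.19) and Palm3. That of Arhgef4 was called, from 1 footprint count at 2 h. Jag2, Evpl and Abcb1a had 5, 8 and 8 footprint counts at 2 h, fewer than the 10 required of the ratio genes named further on. How these 3 ratios move without single libraries was not analysed here.

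Dcaf1, a substrate receptor of a ubiquitin ligase, met the same rule but is listed under 2 symbols in the tables. Its own row held 0 footprint counts at 2 h and 6.26 and 7.78 CPM at 7 h, at least 15.6-fold higher against a floor of 3 counts over the group, and 9.54 and 6.59 CPM in the control. Summed with the row under its older symbol Vprbp, it gave -0.40 and was not called (edgeR adjusted p 0.156), and it also lost its call without replicate 2 at 2 h. The value of the row is not that of the gene.

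**Figure D2:**
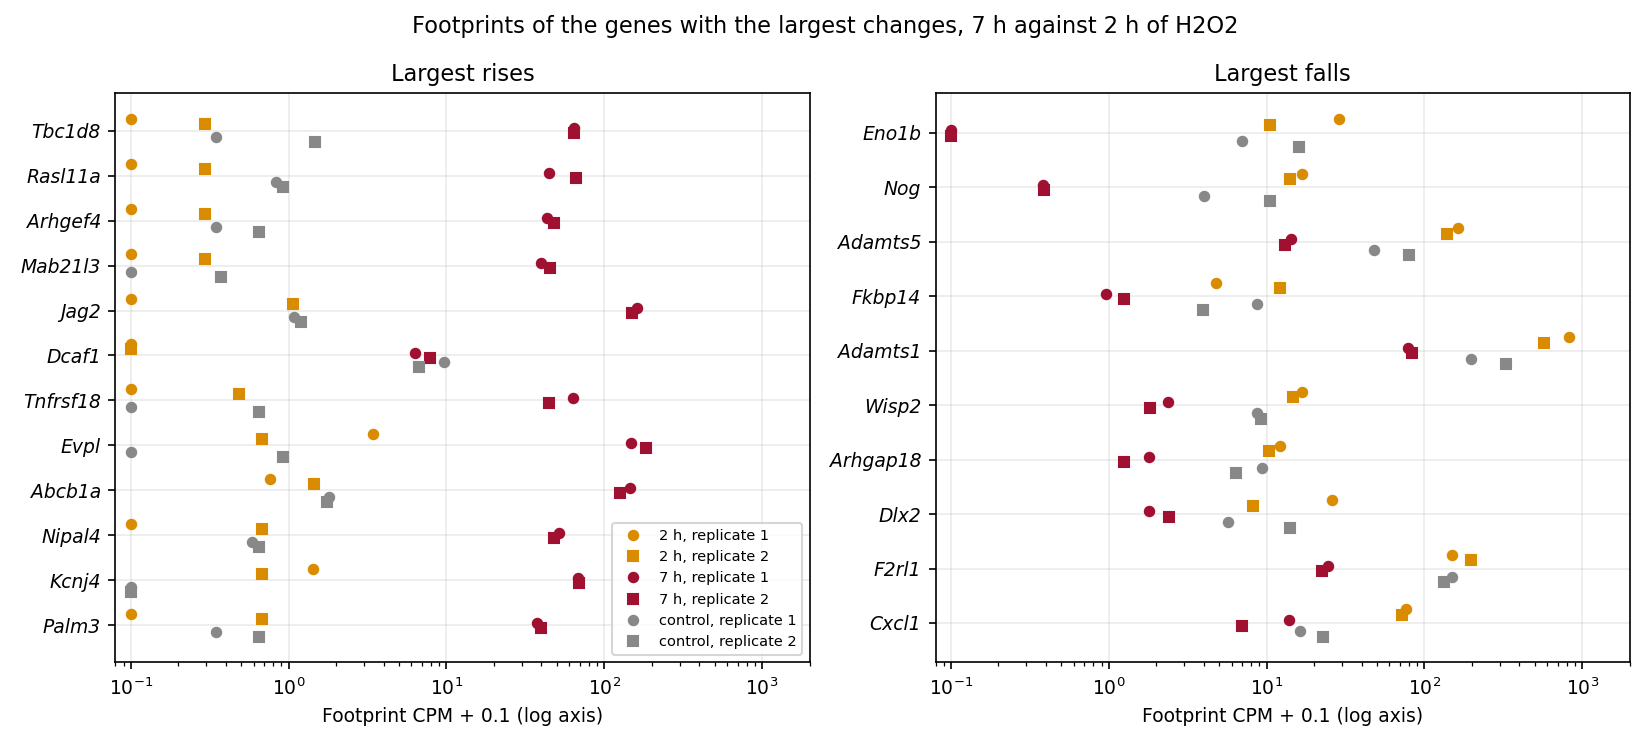
Footprint level (CPM with a small constant added, log axis) of the 12 genes with the largest rises (left) and 10 of those with the largest falls (right), 1 point per library, for 2 h (orange), 7 h (red) and control (grey); circles are replicate 1 and squares replicate 2. The red points lie apart from the orange ones in every row because genes were chosen for times that did not overlap. The control, not used in the choice, lies nearer to 2 h than to 7 h for most rises. For Dcaf1 it lies at the 7 h level.

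Adamts1 and Adamts5, secreted metalloproteases that cleave proteoglycans, were among the largest falls. Adamts1 was at 822 and 569 CPM at 2 h and at 78.6 and 83.2 CPM at 7 h, a log2 change of -3.10 (SE 0.27, edgeR adjusted p 4.41e-06). Adamts5 went from 163 and 138 CPM to 14.2 and 12.96 CPM, a log2 change of -3.46 (SE 0.27, edgeR adjusted p 2.49e-06). The 7 h libraries of both genes lay below the control as well, which stood at 199 and 328 CPM for Adamts1 and 47.7 and 79.7 CPM for Adamts5. Nog, which encodes noggin, a secreted antagonist of BMP, had 97 counts at 2 h and 2 at 7 h, so that the 2 h level was 50.9 times the 7 h level (95% exact interval 13.7 to 426).

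F2rl1, the protease-activated receptor PAR2, went from 149 and 196 CPM to 24.5 and 22.5 CPM, a log2 change of -2.89 (SE 0.23, edgeR adjusted p 2.75e-06). The chemokine gene Cxcl1 fell by 2.85 (SE 0.37) (edgeR adjusted p 1.02e-04). Wisp2, of the CCN family of matricellular proteins, fell by 2.92 (SE 0.45). Arhgap18, a GTPase-activating protein for small GTPases, fell by 2.90 (SE 0.45), the homeobox gene Dlx2 by 2.90 (SE 0.65) and Fkbp14, a prolyl isomerase of the endoplasmic reticulum, by 3.17 (SE 0.62). Fkbp14 was not called without replicate 2 at 2 h. Eno1b had 97 counts at 2 h and 0 at 7 h, at least 33.9-fold lower, but Eno1 is nearly the same in sequence, so how reads were shared out between both is uncertain. Eno1 itself was at -0.53 and was not called (edgeR adjusted p 0.0826).

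Most targets of p53 rose. Of 37 targets tested, 26 were called higher at 7 h and 1 lower, against 18.7% and 11.1% of all genes, with a median log2 fold change of 2.41 against 0.02. Summed over the list, footprints came to 2843 and 3071 CPM at 2 h, 8319 and 10941 CPM at 7 h and 1359 and 1435 CPM in the control. RNA of the list rose alike, with 31 called higher, 3 lower and a median of 2.16. Leaving out any of the 4 libraries left 24 or 25 called higher.

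Among p53 targets of metabolism and repair, 10 of 13 were called higher (median 2.64). Dcxr, a carbonyl reductase, was at 4.002 and 3.49 CPM at 2 h and at 113 and 130.5 CPM at 7 h, a log2 change of 5.05 (SE 0.34, edgeR adjusted p 9.53e-07). Zfp365, a zinc finger gene, rose by 4.59 (SE 0.40). Of 11 targets of cell death, 9 were called higher (median 2.70). Trp53inp1, a p53 cofactor, went from 6.002 and 8.73 CPM to 105 and 138 CPM, a log2 change of 3.95 (SE 0.49, edgeR adjusted p 7.16e-05). Targets of arrest were mixed, with 4 of 9 called higher and Plk2, a polo-like kinase, called lower (-0.70, SE 0.22). Ccng1, which encodes cyclin G1, was at 4.67 and 11.6 CPM at 2 h and at 186 and 194 CPM at 7 h, a log2 change of 4.34 (SE 0.31, edgeR adjusted p 1.19e-06). The 7 h libraries of Dcxr, Trp53inp1 and Ccng1 lay above every 2 h and control library.

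Cdkn1a and Mdm2 were chosen after their values were seen, since p53 control of both is textbook knowledge. Cdkn1a, the inhibitor p21 of cyclin-dependent kinases, was at 72.0 and 86.9 CPM at 2 h and at 856 and 1219 CPM at 7 h, a log2 change of 3.69 (SE 0.26, edgeR adjusted p 1.19e-06). Mdm2, the ubiquitin ligase that limits p53, was at 119 and 233 CPM at 2 h and at 2010.3 and 3144 CPM at 7 h, a log2 change of 3.85 (SE 0.32, edgeR adjusted p 3.11e-06). In the control Cdkn1a stood at 24.9 and 27.2 CPM and Mdm2 at 48.7 and 47.8 CPM, so the 2 h libraries of both were already above the control libraries and far below those at 7 h. Gadd45a (-0.63), Bax (0.73) and Bbc3 (0.63), known targets also picked after their values were seen, were not called.

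Promoter sequence of the p53 targets that rose is shown because these genes moved together. RefSeq promoters of assembly GRCm38.p6 (250 bases before to 50 after the annotated start) were found for 29 of the 37 targets. The p53 decamer, the repeat unit of the p53 response element, was searched on both strands before the start. It was present in 12 of 29 targets, against 7.27% of 8221 genes tested in footprints with a promoter and 7.13% of all 32851 promoters. A pair of decamers close together was found in Cdkn1a alone among the 29, and in 0.0731% of all promoters. The 12 include Gadd45a (-0.63) and Bax (0.73), which were not called. The 3 genes shown have the largest footprint rises of the 12. Capitals mark the decamers in the 3 sequences below, which begin with the Cdkn1a pair and run 5′ to 3′ on the strand of the gene. A match is a description of letters, not a site shown to be bound.
Cdkn1a, plus strand, chr17:29090896-29090947: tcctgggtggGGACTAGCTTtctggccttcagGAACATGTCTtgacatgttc
Mdm2, minus strand, chr10:117710915-117710964: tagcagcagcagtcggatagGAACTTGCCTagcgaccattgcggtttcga
Ccng1, minus strand, chr11:40755442-40755491: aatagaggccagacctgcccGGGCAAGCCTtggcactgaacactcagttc

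**Figure D3:**
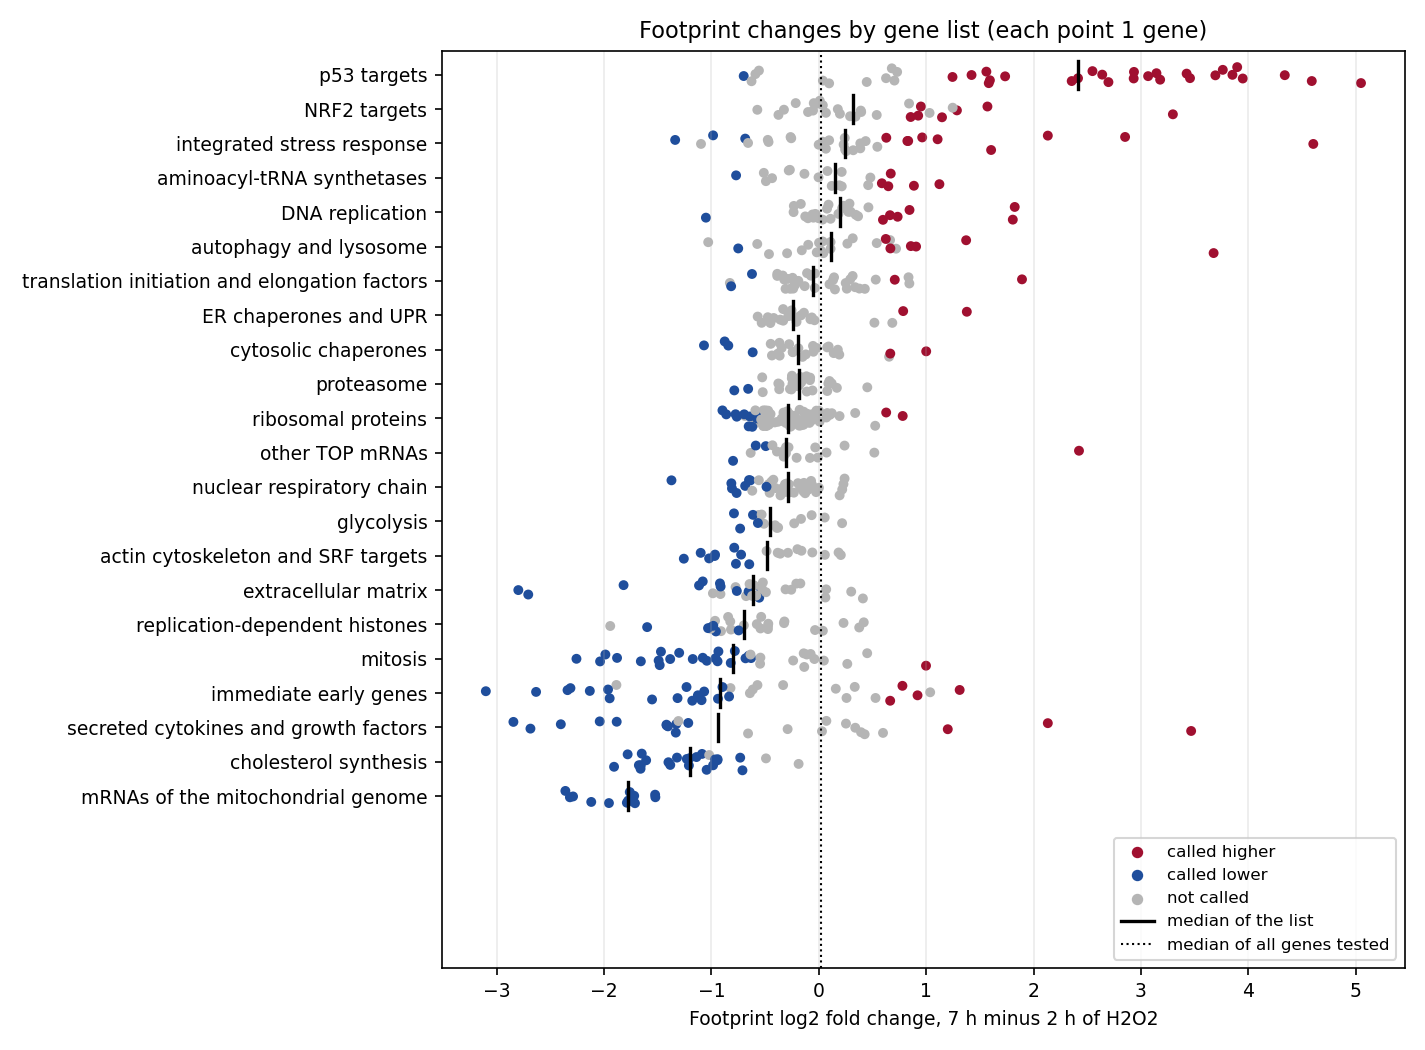
Footprint log2 fold change, 7 h minus 2 h, of every tested member of 22 gene lists (1 point per gene; red called higher, blue called lower, grey not called), with the median of each list as a bar and that of all genes as a dotted line. The p53 targets lie furthest to the right (median 2.41) and the mRNAs of the mitochondrial genome furthest to the left (median -1.78).

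Most targets of NRF2 were not called. Of 28 tested, 7 were called higher, against 18.7% of all genes, and 0 lower, with a median of 0.32, and the other 21 were not called. Cbr3, a carbonyl reductase, was at 3.33 and 4.07 CPM at 2 h and at 39.9 and 36.6 CPM at 7 h, a log2 change of 3.30 (SE 0.50, edgeR adjusted p 3.27e-04). Fth1, the ferritin heavy chain, went from 27.3 and 74.5 CPM to 148 and 172 CPM, a log2 change of 1.57 (SE 0.31), or 2.55 without replicate 2 at 2 h and 1.10 without replicate 1 at 2 h. Txnrd1, thioredoxin reductase, went from 392 and 399 CPM to 762 and 990.5 CPM, a log2 change of 1.15 (SE 0.23), and Nqo1, a quinone reductase, rose by 1.29 (SE 0.32). The times did not overlap for these 4 genes. Hmox1, heme oxygenase, was not called: it stood at 966 and 1382 CPM at 2 h and at 1057 and 2026 CPM at 7 h, against 205 and 251 CPM in the control. Nqo1 lost its call without replicate 2 at 7 h, where the list's median was 0.09, and it was 0.18 without replicate 1 at 2 h.

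Genes of the integrated stress response moved in both directions. Of 31 tested, 9 were called higher and 3 lower, against 18.7% and 11.1% of all genes (median 0.25), while their RNA was called higher for 22 and lower for 6 (median 0.67). The rises were led by enzymes of cysteine synthesis. Cbs, cystathionine beta-synthase, went from 1.33 and 0.970 CPM to 25.3 and 28.2 CPM, a log2 change of 4.61 (SE 0.66, edgeR adjusted p 2.36e-04). Cth, cystathionine gamma-lyase, went from 16.0 and 27.2 CPM to 151 and 179 CPM, a log2 change of 2.85 (SE 0.31, edgeR adjusted p 2.72e-05). Gdf15, a secreted stress cytokine, rose by 2.13 (SE 0.42) and Ddit4, an inhibitor of mTOR signalling, by 1.61 (SE 0.23). Of 9 regulators of the pathway 1 was called higher (Cebpb, 0.96, a transcription factor) and 2 lower. Atf4, the transcription factor of the pathway, went from 267 and 234 CPM to 129.8 and 181 CPM, a log2 change of -0.69 (SE 0.22, edgeR adjusted p 0.0313), and Atf3 fell by 0.99 (SE 0.33); Cebpb, Atf4 and Atf3 were chosen after their values were seen. The 7 h libraries of Atf4 and Atf3 lay below those at 2 h and above the control, which was at 43.0 and 48.9 CPM for Atf4 and 12.96 and 7.69 CPM for Atf3. The list had 3 called higher without replicate 2 at 7 h, where Gdf15 was not called, and a median of 0.08 without replicate 1 at 2 h and 0.13 without replicate 2 at 7 h. It had 1 called lower without replicate 1 at 7 h, and its median of 0.39 without replicate 2 at 2 h was the highest of these.

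Aminoacyl-tRNA synthetases, which charge tRNAs with amino acids, had 5 of 20 called higher, against 18.7% of all genes, and 1 lower (median 0.16; RNA median 0.56). Cars, for cysteine, was at 124 and 130.4 CPM at 2 h and at 259 and 297 CPM at 7 h, a log2 change of 1.12 (SE 0.19, edgeR adjusted p 6.32e-04). Gars, for glycine, rose by 0.89 (SE 0.19) and Wars, for tryptophan, by 0.67 (SE 0.20), while Qars, for glutamine, fell by 0.77 (SE 0.17). The number called higher was 2 without replicate 1 at 2 h, 3 without replicate 2 at 2 h and 2 without replicate 2 at 7 h. Wars was not called in any of these 3 and Qars not in the last, and the median was 0.03 without replicate 2 at 7 h and 0.10 without replicate 1 at 2 h.

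Immediate early genes are the first that growth factors and stress induce. Of 32 tested, 17 were called lower, against 11.1% of all genes, 4 higher and 11 neither (median -0.92; RNA median -1.08). Summed over the list, footprints stood at 7745 and 6323 CPM at 2 h, 2833 and 3619 CPM at 7 h and 2285 and 2461 CPM in the control. Transcription factors outside AP-1 had 9 of 14 called lower and 0 higher (median -1.15). Egr2, a zinc finger transcription factor, fell by 3.10 (SE 0.66). Nr4a1, an orphan nuclear receptor, went from 211 and 242 CPM to 38.4 and 52.7 CPM, a log2 change of -2.31 (SE 0.28, edgeR adjusted p 7.09e-05). Of the AP-1 subunits, 4 of 7 were called lower and 1 higher. Fosb went from 92.7 and 84.4 CPM to 11.1 and 17.3 CPM, a log2 change of -2.63 (SE 0.26, edgeR adjusted p 1.37e-05). Fos, chosen after its values were seen, was not called: it stood at 80.7 and 52.4 CPM at 2 h and at 59.2 and 86.1 CPM at 7 h, above the control at 10.5 and 6.59 CPM. Tnfaip3, a feedback inhibitor of NF-kB, fell by 2.34 (SE 0.29). The number called higher was 2 without replicate 1 at 2 h, 1 without replicate 2 at 2 h and 0 without replicate 2 at 7 h; the number called lower was 12 to 17 in these and without replicate 1 at 7 h.

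Secreted cytokines and growth factors had 11 of 24 called lower and 3 higher, against 11.1% and 18.7% of all genes (median -0.94, RNA median -1.34). The chemokines Cxcl5 and Ccl7 fell by 2.69 (SE 0.28) and 2.40 (SE 0.48). Cxcl5 was at 66.7 and 43.5 CPM at 2 h and at 9.96 and 6.62 CPM at 7 h. Growth factors went both ways, with 5 of 14 called lower and 3 higher. Pdgfa, a subunit of platelet-derived growth factor, went from 6.002 and 5.82 CPM to 64.6 and 66.2 CPM, a log2 change of 3.47 (SE 0.31, edgeR adjusted p 5.95e-06). The levels of this list at 2 h differed between replicates, with 2850 CPM in sum in replicate 1 and 5863 CPM in replicate 2. Without replicate 2 at 2 h the median was 0.02 and 7 genes were called higher. The number called higher was 1 without replicate 2 at 7 h, and the number called lower was 9 to 12 across the 4.

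Genes of cholesterol synthesis and uptake fell together. Of 25 tested, 22 were called lower and 0 higher, against 11.1% and 18.7% of all genes, with a median of -1.20 in footprints and -1.22 in RNA. In sum they stood at 5709 and 5675 CPM at 2 h, 2580 and 2461 CPM at 7 h and 4976 and 5019 CPM in the control. Leaving out a library left 16 to 19 called lower. Of 20 enzymes, 17 were called lower (median -1.11), and so were all 5 genes of uptake and control (median -1.68). Insig1, which holds the regulator SREBP in the endoplasmic reticulum, was at 97.4 and 83.4 CPM at 2 h and at 22.5 and 25.3 CPM at 7 h, a log2 change of -1.91 (SE 0.26, edgeR adjusted p 1.38e-04). Its 7 h libraries lay below every 2 h and control library.

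Promoters of this list are shown because nearly all members moved together. The CCAAT motif, bound by NF-Y, was searched on both strands in the 250 bases before the start. The sterol element TCACNCCAC was searched on both strands of the promoter. CCAAT was present in 16 of the 17 members with a promoter (94.1%), against 40.8% of the genes tested and 33.8% of all promoters. TCACNCCAC was present in 1 of 17, Hmgcs1, against 1.20% of genes tested and 1.05% of all promoters. Capitals mark CCAAT or its reverse complement ATTGG in the first pair and the sterol element in the last.
Insig1, plus strand, chr5:28071176-28071220: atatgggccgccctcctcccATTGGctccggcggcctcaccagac
Hmgcs1, plus strand, chr13:119690286-119690330: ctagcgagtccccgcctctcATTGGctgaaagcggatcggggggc
Hmgcs1, plus strand, chr13:119690189-119690263: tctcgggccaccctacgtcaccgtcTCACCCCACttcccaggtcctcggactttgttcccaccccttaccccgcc
Hmgcs1 encodes a synthase early in the pathway. It went from 318 and 281 CPM to 107 and 89.0 CPM, a log2 change of -1.61 (SE 0.19, edgeR adjusted p 5.63e-05), and was chosen after its values were seen.

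Of 30 extracellular matrix genes, 11 were called lower and 0 higher, against 11.1% and 18.7% of all genes (median -0.61), with 7 lower without replicate 1 at 7 h. RNA fell further (median -0.99, 28 called lower), and 5 genes had a higher footprint-to-RNA ratio. Thbs1, the matricellular protein thrombospondin-1, was at 7544 and 7621 CPM at 2 h and at 1148 and 1175 CPM at 7 h, a log2 change of -2.71 (SE 0.20, edgeR adjusted p 1.22e-06). Ctgf, of the CCN family, went from 2698 and 2784 CPM to 391 and 397 CPM, a log2 change of -2.80 (SE 0.23, edgeR adjusted p 3.11e-06). Both stood near or above the control at 2 h and below every control library at 7 h, the control being at 7257 and 7503 CPM for Thbs1 and 1757 and 1651 CPM for Ctgf. The CCN genes Wisp1 and Cyr61 fell by 1.82 (SE 0.29) and 1.12 (SE 0.22). Among 12 collagens 4 were called lower (median -0.55), including Col1a1 at -0.92 (SE 0.20) and Col1a2 at -1.08 (SE 0.20).

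Of 19 genes of the actin cytoskeleton, many of them targets of the serum response factor SRF, 9 were called lower, against 11.1% of all genes, and 0 higher (median -0.49, RNA median -0.73). Vcl, vinculin of focal adhesions, was at 1371 and 1624 CPM at 2 h and at 606 and 647 CPM at 7 h, a log2 change of -1.26 (SE 0.18, edgeR adjusted p 2.44e-04). Cnn2, calponin, fell by 1.10 (SE 0.22), Actg1, cytoplasmic gamma actin, by 1.02 (SE 0.18) and Zyx, zyxin, by 0.97 (SE 0.24). The count was 4 without replicate 1 at 7 h, where the median was -0.31, and the median was -0.78 without replicate 2 at 7 h. Zyx was not called without replicate 1 of either time.

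Most genes of mitosis were lower at 7 h, when 11.1% of all genes tested were called lower and 18.7% higher. Of 34 mitosis genes, 21 were called lower and 1 higher (median -0.80, RNA median -0.99), and leaving out a library left 15 to 21 lower. Kinases and their regulators had 8 of 16 called lower and 0 higher (median -0.63). Plk1, the polo-like kinase of mitotic entry, was at 165 and 133 CPM at 2 h and at 39.3 and 22.5 CPM at 7 h, a log2 change of -2.26 (SE 0.25, edgeR adjusted p 3.54e-05). Genes of the spindle and chromosomes had 13 of 18 called lower and 1 higher (median -1.06). Prc1, which bundles microtubules of the central spindle, went from 239 and 233 CPM to 64.9 and 53.9 CPM, a log2 change of -1.99 (SE 0.20, edgeR adjusted p 1.37e-05). The 7 h libraries of Plk1 and Prc1 lay below every 2 h and control library. Nusap1, a spindle protein, fell by 2.04 (SE 0.34) and Cenpf, of the kinetochore, by 1.88 (SE 0.35). The kinetochore motor gene Cenpe was the member called higher (1.00), chosen here after its value was seen. That number was 0 without replicate 1 of either time and 2 without replicate 2 at 2 h.

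Of 30 DNA replication genes, 6 were called higher, near the 18.7% of all genes, and 1 lower (median 0.20, RNA median 0.34). Rrm2, a subunit of ribonucleotide reductase, was at 292 and 277 CPM at 2 h and at 862 and 1152 CPM at 7 h, a log2 change of 1.83 (SE 0.24, edgeR adjusted p 1.17e-04). Ccne2, cyclin E2, went from 15.3 and 28.9 CPM to 77.2 and 88.1 CPM, a log2 change of 1.81 (SE 0.29). Both sets of 7 h libraries lay above the control, which held 355 and 473 CPM for Rrm2 and 72.1 and 52.2 CPM for Ccne2. Tk1, thymidine kinase, fell by 1.05 (SE 0.21). Without replicate 1 at 2 h or replicate 1 at 7 h 3 were called higher, and without replicate 2 at 7 h 2 were, with a median of 0.06.

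The hexamer TTTGAA, the core of the cell cycle homology region found in promoters of many mitosis genes, was searched on both strands in the 100 bases before the start. It is shown because 21 of 34 mitosis genes were called lower, against 1 of 30 DNA replication genes. It was present in 7 of 28 mitosis genes with a promoter (25%) and 1 of 24 DNA replication genes, against 3.81% of genes tested and 5.77% of all promoters. Capitals mark the hexamer or its reverse complement TTCAAA.
Prc1, plus strand, chr7:80294426-80294475: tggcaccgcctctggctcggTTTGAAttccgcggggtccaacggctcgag
Kif11, plus strand, chr19:37376343-37376381: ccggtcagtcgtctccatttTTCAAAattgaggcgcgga
Ncapg, plus strand, chr5:45669875-45669924: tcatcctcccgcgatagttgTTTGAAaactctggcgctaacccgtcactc
Kif11, a spindle motor, fell by 1.47 (SE 0.26), while Ncapg, of the condensin complex, carried the hexamer and was not called (-0.11, SE 0.24). Both were chosen for their sequence.

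The median change of ribosomal protein mRNAs differed in sign between RNA and footprints. RNA was called higher at 7 h for all 81 of the genes tested (median 0.54), against 37.3% of all genes. The footprints of 70 of 81 lay below 0 (median -0.29), against 5186 of all 10545 genes tested. Footprints were called lower for 11 and higher for 2, against 11.1% and 18.7% of all genes. The footprint-to-RNA ratio, tested as an interaction over 20 libraries, lay below 0 for 80 of 81, with a median of -0.78 against 0.08 for all genes, and was called lower for 42 and higher for 0. Over all genes the ratio was called for 755 of 10480 (7.2%), with 517 higher (4.93%) and 238 lower (2.27%). Negative ratios were not confined to this list. They were found for 20 of 20 aminoacyl-tRNA synthetases (median -0.41, 2 called lower) and 28 of 31 proteasome genes (median -0.26, 0 called lower). Genes of the integrated stress response had 25 of 31 (median -0.39, 6 called lower and 1 higher). The ratio median of extracellular matrix genes was 0.51. In sum the footprints of the ribosomal protein list came to 58321 and 56824 CPM at 2 h, 42322 and 49996 CPM at 7 h and 63250 and 75137 CPM in the control. The footprint calls were few and depended on single libraries. There were 6 lower without replicate 1 at 2 h, 9 without replicate 2 at 2 h, 2 without replicate 1 at 7 h, 5 without replicate 2 at 7 h and 2 on log2(TPM + 1), and 0 higher without replicate 1 at 2 h or either replicate at 7 h. The footprint median ran from -0.23 to -0.47 over these 4 and was -0.11 on the TPM scale, while the ratio median lay between -0.71 and -0.94 without any of the 8 libraries in turn.

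Rpl36a, of the large subunit, went from 329 and 235 CPM to 151 and 158 CPM, a log2 change of -0.86 (SE 0.20, edgeR adjusted p 0.00591). Its 7 h footprints lay below every 2 h and control library, whereas its RNA rose by 0.45 and its ratio changed by -1.27 (edgeR adjusted p 0.00284). Rps21, of the small subunit, fell by 0.90 (SE 0.25). Rps27l, an S27 paralogue that p53 is known to induce, rose from 108 and 184 CPM to 256 and 253 CPM, a log2 change of 0.78 (SE 0.22, edgeR adjusted p 0.017). Rps21 and Rps27l lost their calls without replicate 1 at 2 h or either replicate at 7 h. Rpl41 had no footprint counts, which leaves it untested. Many ribosomal protein genes have processed pseudogenes, so their counts carry an uncertainty of assignment.

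**Figure D4:**
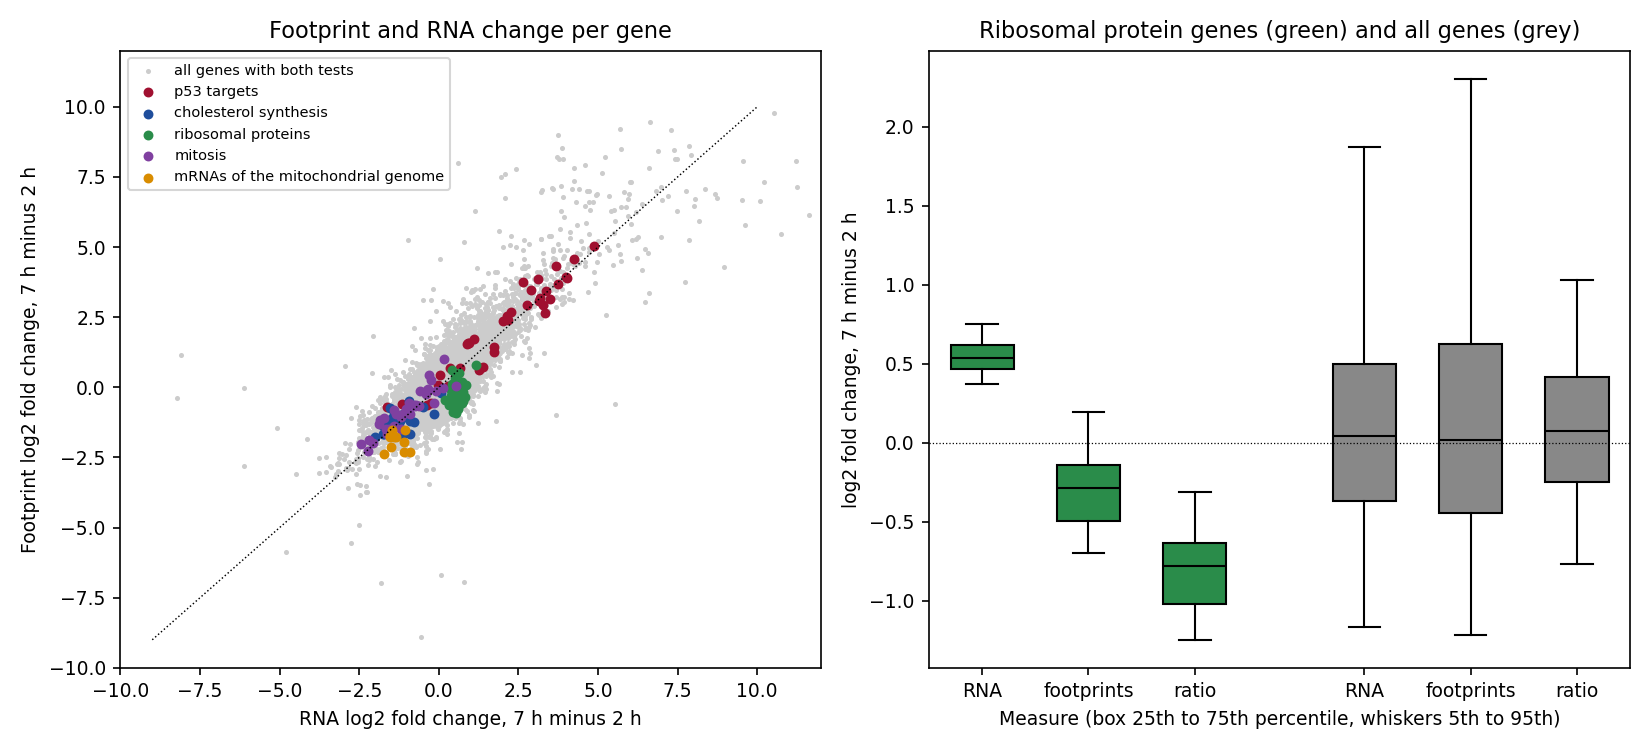
Left: footprint against RNA log2 fold change (7 h minus 2 h) of each gene with both tests, with 5 lists in colour and the line of equal change dotted. Right: RNA, footprint and ratio log2 fold changes of the ribosomal protein genes (green) and all genes (grey), with boxes from the 25th to the 75th percentile and whiskers from the 5th to the 95th; the ribosomal protein genes lie above 0 in RNA (median 0.54) and mostly below 0 in footprints (median -0.29).

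The first bases of the transcript are shown for ribosomal protein genes because TOP mRNAs are defined by them. A run of C followed by at least 4 pyrimidines, on the strand of the gene and starting between 5 bases before and 10 bases after the annotated start, was found in 35 of 61 genes with a promoter (57.4%). The share was 28.9% of the genes tested and 23.2% of all promoters. Capitals mark the run in these 30-base windows, which begin 5 bases before the annotated start.
Rps21, plus strand, chr2:180257374-180257403: ccgCCCTCCTgcccaatagtgctgcggagg
Rps10, minus strand, chr17:27635220-27635249: cgCCCCTTCCTTTCCagcctccgcctcgga
Rplp2, plus strand, chr7:141447646-141447675: tCTTCCTTTCgccgccggacgccgccgagg
Fau, plus strand, chr19:6057942-6057971: caCTTCTTCCTCTTTCTTgactccatcttc
Rpl35a, plus strand, chr16:33056477-33056506: CCTTCCTCTTTCCgccatcttggcgcctgt
Rps21, Rps10, Rplp2 and Fau were picked after their values were seen and have ratios among the most negative of the 35 genes, which ran from -1.39 (Rps21) to -0.09 (Rpl12). The ratio of Rps10, Rplp2 and Fau changed by -1.31, -1.20 and -1.20 (edgeR adjusted p 0.0079, 0.00284 and 0.00204). Rpl35a also begins with such a run, and its ratio of -0.51 was not called (edgeR adjusted p 0.201).

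Other TOP mRNAs encode elongation factors, initiation factors and a few other proteins. Of 19, 3 were called lower and 1 higher (median -0.31, RNA median 0.31), against 11.1% and 18.7% of all genes. The ratio was called lower for 6 and higher for 1 (median -0.57), against 2.27% and 4.93% of all genes. Vim, the intermediate filament vimentin, went from 4637 and 4167 CPM to 2581 and 2479 CPM, a log2 change of -0.80 (SE 0.17, edgeR adjusted p 0.00366). Eif4b and Eif3f, of initiation, were called at -0.59 and -0.49, but neither was called with any of the 4 libraries left out, which leaves 1 called lower each time. Pabpc1, the cytoplasmic poly(A) binding protein, was the member called higher, while 4 of the 19 had a footprint change above 0. It was at 62.7 and 97.2 CPM at 2 h and at 503 and 371 CPM at 7 h, against 773 and 771 CPM in the control. Its log2 fold change was 2.42 (SE 0.23, edgeR adjusted p 1.10e-05) and that of its ratio 1.78 (edgeR adjusted p 0.00146), with RNA at 0.67. The footprints of Pabpc1 at 7 h lay between 2 h and control. Without replicate 2 at 2 h the number called higher was 2, and the footprint median was -0.17.

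Genes whose footprints changed beyond their RNA were read from the same interaction. Genes ranked here had a called ratio, an average footprint log2 CPM of at least 3 and at least 10 footprint counts at each time. Among them the largest rise in ratio was that of Fbxw7, the substrate receptor of a ubiquitin ligase that degrades cyclin E and Myc. Its footprints were at 4.002 and 3.88 CPM at 2 h and at 72.9 and 79.2 CPM at 7 h, while its RNA went from a mean of 20.8 to 48.1 CPM. The ratio rose by 3.11 (SE 0.32, edgeR adjusted p 1.22e-04), the footprints by 4.27 and RNA by 1.21. Abca1, which exports cholesterol from cells, went from 7.34 and 14.2 CPM to 136 and 133 CPM in footprints, with a ratio rise of 2.18 (SE 0.30, edgeR adjusted p 0.00146). The times did not overlap for either gene. Ifitm1, an interferon-induced membrane protein, rose in ratio by 2.94 (SE 0.49), Cdkn2c, the p18 inhibitor of CDK4 and CDK6, by 2.32 (SE 0.27) and Arhgef10l, an exchange factor for small GTPases, by 2.09 (SE 0.28). Ifitm1 had an RNA mean of 1.49 CPM at 2 h and 0.878 CPM at 7 h. The linker histone gene Hist1h1c rose in ratio by 2.03 (SE 0.41) with footprints that were not called (0.38), and its RNA mean was 9.06 CPM at 2 h and 2.997 CPM at 7 h.

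Leng8 was among the largest falls in ratio. Its footprints went from 139 and 131 CPM to 18.8 and 23.6 CPM, below the control at 51.4 and 45.6 CPM, and its RNA fell by 0.65. The ratio changed by -1.97 (SE 0.19, edgeR adjusted p 8.43e-05). Dlx2 changed in ratio by -2.46 (SE 0.70) and Npr3, a clearance receptor of natriuretic peptides, by -1.86 (SE 0.41). Qtrt2 and D10Jhu81e met the rule at -6.15 and -2.14 but have a second symbol in the tables; summed with Qtrtd1 and Gatd3a they were at -0.05 and -0.51 (edgeR adjusted p 0.163 for the latter), and neither was called. Hist2h3c2 met it at -4.52 with RNA near 0 in these libraries, and its counts equal those of its copy Hist2h3c1. The ratios of Fbxw7, Abca1, Ifitm1, Cdkn2c, Arhgef10l and Leng8 were called without any of the 8 libraries in turn. That of Dlx2 was called only without footprint replicate 2 at 2 h and lost its call (values from -2.68 to -1.76) without each of the other 7. Npr3 lost its ratio call without footprint replicate 2 at 7 h (-1.81) or RNA replicate 2 at 7 h (-1.64), and Hist1h1c without RNA replicate 1 at 7 h (1.94). D10Jhu81e lost it without footprint replicate 1 at 7 h (-1.57). Hist2h3c2 lost it without footprint replicate 2 at 7 h, either RNA replicate at 2 h or RNA replicate 1 at 7 h (-7.34 to -3.64), and Qtrt2 without 6 of the 8.

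The number of ratio calls moved more than that of footprint calls. It was 299 in limma voom with a weight for each kind of library, 322 with only the 8 H2O2 libraries at 2 h and 7 h, and 1418 without footprint replicate 2 at 2 h. It was 370 and 398 without footprint replicate 1 or 2 at 7 h, 358 and 212 without RNA replicate 1 or 2 at 2 h, and 153 and 319 without RNA replicate 1 or 2 at 7 h.

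Cytosolic chaperones had 2 of 27 called higher and 4 lower, against 18.7% and 11.1% of all genes (median -0.19, or 0.06 on log2(TPM + 1)). Hspa4l, of the HSP110 family, went from 92.0 and 91.4 CPM to 46.4 and 40.9 CPM, a log2 change of -1.07 (SE 0.19, edgeR adjusted p 0.00109), and the cochaperone Dnajb1 rose by 1.00 (SE 0.22). Hsph1 and Bag3 fell by 0.84 (SE 0.20) and 0.88 (SE 0.30). Dnajb1 lost its call without replicate 2 at 7 h, Hsph1 without replicate 1 at 7 h, and Bag3 without replicate 1 at 2 h or either at 7 h. Those called lower were 1 without replicate 1 at 7 h and 2 without replicate 2 at 7 h, and those called higher 1 and 0. Hspa1a and Hspa1b, near-identical copies whose reads cannot be divided with certainty, were not called (0.65 and -0.15).

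Chaperones of the endoplasmic reticulum and genes of the unfolded protein response had 2 of 22 called higher and 0 lower (median -0.24). Over all genes 18.7% were called higher and 11.1% lower. RNA of these 22 genes was called lower for 18 (median -0.60). Edem1, which sorts misfolded proteins for degradation, went from 33.3 and 47.3 CPM to 106 and 109 CPM, a log2 change of 1.38 (SE 0.21, edgeR adjusted p 4.08e-04). Ern1, the stress sensor IRE1, rose by 0.79 (SE 0.28) but was not called without replicate 1 at 2 h or either replicate at 7 h. Hspa5, the major chaperone BiP, stood at 4485 and 7107 CPM at 2 h and at 4116 and 4924 CPM at 7 h, and Hsp90b1 at 1906 and 3869.6 CPM and at 2582 and 2669.6 CPM. Replicate 2 at 2 h was the higher for both, and neither was called. With that replicate left out the list had 4 called higher and a median of 0.03. Leaving out replicate 1 at 2 h gave 1 higher, 3 lower and a median of -0.45, and 1 was called higher without either replicate at 7 h.

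Nuclear genes of the respiratory chain had 8 of 42 called lower and 0 higher (median -0.29, RNA median 0.08), against 11.1% and 18.7% of all genes. Of their ratios, 39 of 42 lay below 0, against 4570 of 10480 over all genes. Ndufs7, of complex I, went from 219 and 134 CPM to 67.5 and 67.4 CPM, a log2 change of -1.37 (SE 0.24, edgeR adjusted p 0.00104). Cyc1 and Uqcrh, of complex III, fell by 0.81 each (SE 0.20) and Atp5g1, of the ATP synthase, by 0.77 (SE 0.22). The count was 4 without replicate 1 at 2 h, 1 without replicate 1 at 7 h and 5 without replicate 2 at 7 h. Cyc1, Uqcrh and Atp5g1 lost their calls without replicate 1 at 7 h, and Atp5g1 also without replicate 1 at 2 h. The median was -0.50 without replicate 2 at 7 h and -0.12 on the TPM scale.

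Glycolysis had 4 of 16 called lower and 0 higher (median -0.46), against 11.1% and 18.7% of all genes. Gapdh changed by -0.79 (SE 0.19), from 5464 and 5090.4 CPM to 3087 and 3015 CPM. Pfkm, Tpi1 and Pkm, of phosphofructokinase, triose phosphate isomerase and pyruvate kinase, were called at -0.73, -0.61 and -0.57, and none of the 3 was called without replicate 1 at 7 h. Tpi1 also lost its call without either replicate at 2 h and Pkm without replicate 1 at 2 h. The number called lower was 1 without replicate 1 at 7 h and 0 on log2(TPM + 1), and the median was -0.22 without replicate 1 at 2 h and -0.72 without replicate 2 at 7 h. The proteasome had 2 of 31 called lower and 0 higher (median -0.18), both below the shares of all genes. Its catalytic subunits Psmb5 (-0.79) and Psmb6 (-0.66) were not called without replicate 1 of either time, nor Psmb6 without replicate 2 at 2 h. The number called lower was 3 without replicate 2 at 7 h, where the median was -0.32, and Psmd2 (-0.16) and Psmb3 (-0.26) were not called.

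Translation initiation and elongation factors had 2 of 36 called higher and 2 lower, against 18.7% and 11.1% of all genes (median -0.06, or 0.12 on log2(TPM + 1)). Eif4ebp2, an inhibitor of the cap-binding protein eIF4E, went from 2.00 and 4.07 CPM to 13.95 and 11.8 CPM, a log2 change of 1.89 (SE 0.40, edgeR adjusted p 0.00324), with a ratio rise of 1.57 (edgeR adjusted p 0.00568). Eif4e itself fell by 0.82 (SE 0.22), from 157 and 210.1 CPM to 88.8 and 121 CPM. Eif3c rose by 0.71 (SE 0.18) and Eif2b1 fell by 0.62 (SE 0.19). Eif4e lost its call without replicate 2 at 2 h or replicate 1 at 7 h, Eif3c without replicate 1 at 2 h or replicate 2 at 7 h, and Eif2b1 without either replicate at 2 h or replicate 2 at 7 h. Each of the 4 left out gave 1 called lower, with 4 called higher and a median of 0.02 without replicate 2 at 2 h. Without replicate 1 at 2 h or replicate 2 at 7 h 1 was called higher, with medians of -0.05 and -0.21, and without replicate 1 at 7 h the median was 0.04.

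Autophagy and lysosome genes had 6 of 25 called higher, against 18.7% of all genes, and 1 lower (median 0.11). Ulk1, the kinase that starts autophagy, was at 10.7 and 16.7 CPM at 2 h and at 159.7 and 213 CPM at 7 h, a log2 change of 3.68 (SE 0.30, edgeR adjusted p 2.90e-06), and its RNA rose by 2.48. The 7 h libraries of Ulk1 were far above the control, at 13.7 and 15.7 CPM. Wipi1, which binds the phagophore, rose by 1.37 (SE 0.29), Atg5, of the conjugation machinery, by 0.91 (SE 0.23) and the lysosomal protease gene Ctsd by 0.86 (SE 0.28). Ctsd was not called without replicate 1 at 2 h or either at 7 h, and Atg5 not without replicate 2 of either time. The number called higher was 3 without replicate 1 at 2 h (median -0.11) and 2 without replicate 2 at 7 h. The number called lower was 0 without replicate 1 of either time and 2 without replicate 2 at 2 h (median 0.37), and without replicate 1 at 7 h the median was 0.03.

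All 13 mRNAs of the mitochondrial genome, which mitochondrial ribosomes translate, were called lower, against 11.1% of all genes (median -1.78, RNA median -1.43). ND3, of complex I, was at 38.7 and 61.7 CPM at 2 h and at 12.2 and 7.78 CPM at 7 h, a log2 change of -2.36 (SE 0.43, edgeR adjusted p 0.00133). CYTB, of complex III, went from 111 and 268 CPM to 42.1 and 46.4 CPM, a log2 change of -2.12 (SE 0.34, edgeR adjusted p 5.10e-04), or -1.32 without replicate 2 at 2 h. ATP8 fell by 2.32 (SE 0.32) and ND6 by 2.29 (SE 0.46). In all 13, replicate 1 at 2 h lay below replicate 2, with a median log2 ratio of -1.02 between them, and the part of this in the result was not tested. The sums were 762 and 1659 CPM at 2 h, 307 and 386 CPM at 7 h and 2079 and 1532 CPM in the control. Without replicate 2 at 2 h 7 were called lower with a median of -1.12, and without replicate 1 at 7 h 8 were. The ratio median was -0.40, and 0.31 without footprint replicate 2 at 2 h.

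Replication-dependent histones had 6 of 27 called lower and 0 higher, against 11.1% and 18.7% of all genes (median -0.70). Hist1h4d went from 2238 and 1378 CPM to 919 and 847 CPM, a log2 change of -1.03 (SE 0.22, edgeR adjusted p 0.00318), or -0.65 without replicate 1 at 2 h. Hist1h4h fell by 1.599 (SE 0.51), Hist1h3d by 1.00 (SE 0.35) and Hist2h3c1 by 0.98 (SE 0.35), each uncertain because histone genes are near-identical copies. These mRNAs lack a polyA tail, and 10 of the 27 had an RNA test. All 27 were higher in replicate 1 than in replicate 2 at 2 h, by a median log2 ratio of 0.70, and the part of this in the result was not tested. Without replicate 1 at 2 h 1 was called lower and 1 higher, with a median of -0.26. Without replicate 2 at 2 h 12 were called lower with a median of -1.07, and without replicate 2 at 7 h 2 were. Hist1h4h and Hist2h3c1 were not called without replicate 1 at 2 h or either replicate at 7 h, and Hist1h3d not without replicate 1 at 2 h or replicate 2 at 7 h.

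The 6 genes with the largest share of footprints at 2 h were Actb, Eef1a1, Actg1, Col1a1, Thbs1 and Hspa5. At 7 h they included Actb, Eef1a1, Fn1, Actg1 and Hspa5. The 10 top genes took 8.51% and 8.17% of the counts, against 5.92% and 5.94% at 7 h and 8.11% and 8.24% in the control. Actb, cytoplasmic beta actin, was at 21610.3 and 18827 CPM at 2 h and at 11912 and 13894 CPM at 7 h, a log2 change of -0.65 (SE 0.18, edgeR adjusted p 0.0179), and lost its call without replicate 1 of either time. Eef1a1, the elongation factor, was at 9796 and 11980.4 CPM and at 8459.8 and 8899 CPM, and was not called (-0.33, SE 0.18). Fn1, fibronectin, stood at 3681 and 6010.3 CPM and at 5579 and 4536 CPM. For Fn1 the times overlapped.

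Of the 10 fibroblast markers 5 were called lower and 0 higher (median -0.86), against 11.1% and 18.7% of all genes. Their sums were 24717 and 23967 CPM at 2 h, 15762 and 15428 CPM at 7 h and 21419 and 20568 CPM in the control. Pdgfrb, a receptor of platelet-derived growth factor, went from 155 and 146 CPM to 37.3 and 27.4 CPM, a log2 change of -2.22 (SE 0.37, edgeR adjusted p 6.37e-04), and Loxl1, a lysyl oxidase, fell by 1.40 (SE 0.22). Of 21 markers of other cell types 5 could be tested, and 4 were called higher, against 18.7% of all genes. The remaining marker tested, of epithelial cells, was at -2.51 and was not called. The immune marker Cd68, a lysosomal protein, went from 9.34 and 11.6 CPM to 46.4 and 29.7 CPM (1.81, SE 0.31) and Tubb3 from 42.7 and 26.0 CPM to 49.8 and 66.2 CPM (0.81, SE 0.28). Des and Krt5 rose from 2 and 1 counts at 2 h, with count ratios of 41.0 (95% exact interval 11.002 to 344) and 23.8 (3.90 to 978). With so few counts at 2 h, both passed the count filter through other groups. Krt5 could not be tested without replicate 2 at 7 h. In sum these 21 markers reached 59.4 and 62.7 CPM at 2 h, 123 and 117 CPM at 7 h and 33.3 and 26.1 CPM in the control. Tubb3 lost its call without replicate 2 at 2 h or either replicate at 7 h and Krt5 without either at 2 h or replicate 1 at 7 h. The 4 called higher became 2 without replicate 2 at 2 h or either at 7 h, and the median of the 5 went from 1.81 to 1.19 and 0.55 without replicate 1 or 2 at 7 h.

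The study followed transcription from a gene into its downstream neighbour, which the authors' deposited table marks as read-in calls per RNA library. A read-in call stood in both 7 h RNA libraries of H2O2 for 25 downstream genes, 22 of which also had it in both libraries at 2 h. In footprints 18 of them could be tested, and 1 was called higher and 0 lower, against 18.7% and 11.1% of all genes. The median was -0.06 (RNA of the 25: 11 called higher, 8 lower). The gene called higher was Irf9, an interferon regulatory factor, at 1.54; it was named after its value was seen. Mta2, of a histone deacetylase complex, stood at 175 and 181 CPM at 2 h and at 205 and 217 CPM at 7 h. Gabarap, an autophagy protein, was at 157 and 140.1 CPM and at 123 and 163 CPM, and Ftl1, the ferritin light chain, at 111 and 84.8 CPM and at 139 and 209 CPM. Ints5, of the integrator complex, was at 77.4 and 38.8 CPM and at 66.9 and 52.4 CPM. None of these 4 was called, and the times overlapped for Gabarap and Ints5.

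The same interval under KCl served to place the H2O2 changes. Between 2 h and 7 h of KCl 2170 genes were called (20.6%), 1281 higher (12.1%) and 889 lower (8.43%). The difference between the stresses itself, H2O2 minus KCl in 7 h minus 2 h, was called for 1785 genes (16.9%), 1028 above (9.75%) and 757 below (7.18%). Of the 37 p53 targets 20 were called above KCl and 0 below, where the KCl median was -0.15. Of the 25 cholesterol genes 17 were called below KCl and 0 above (KCl median 0.09), and of the 34 mitosis genes 17 below and 0 above (KCl median 0.24). The mitochondrial mRNAs had 11 of 13 below (KCl median 0.22), and glycolysis 7 of 16 (KCl median 0.36). Of 81 ribosomal protein genes 0 were called for the difference between the stresses (edgeR), with a KCl median of -0.38 and 8 called lower in KCl. Immediate early genes fell in KCl too, with 19 of 32 called lower there and a median of -1.60; 7 were called above and 2 below KCl in the H2O2 change. Pdgfa, at 3.47 in H2O2, was at -1.53 in KCl (difference 4.99, edgeR adjusted p 1.27e-04), and Cxcl5, at -2.69 in H2O2, was at 0.97 in KCl (difference -3.66, edgeR adjusted p 4.92e-05). Adamts1 was at -2.72 in KCl and -3.10 in H2O2, a difference of -0.38 that was not called (edgeR adjusted p 0.493). Hspa4l, at -1.07 in H2O2, was at 2.59 in KCl (difference -3.66, edgeR adjusted p 6.96e-06). Pdgfa, Cxcl5, Adamts1 and Hspa4l were named for their H2O2 change, which is part of this difference. How the list counts of this difference move without single libraries was not analysed here.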

How the data were processed

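Footprints and RNA of NIH3T3 cells were analysed from gene tables. The authors deposited expected counts per gene for both kinds of library and TPM values for the footprints. STAR, RSEM, Bowtie and mm10 are named per the submitters' processing notes, without roles or versions. Footprint libraries followed an earlier published method and RNA libraries a commercial kit, per the labels' protocols. Footprint lengths and aligner settings were not stated. All expected counts in the deposited tables are whole, so none was rounded. Of the footprint columns, 6 carried the name of no labelled sample and were left out. Read-in calls (true or false) were taken from the authors' deposited table.

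The main test was glmQLFTest of edgeR 4.0.16 in R 4.3.3, with TMM and filterByExpr. P-values were adjusted by Benjamini-Hochberg across every gene in the fit, with a threshold of 0.05. All 10 footprint libraries of 5 groups entered the fit, and 10 RNA libraries a like one. The footprint-to-RNA ratio was the interaction of library kind with time over 20 libraries. Each standard error (SE) is the absolute log2 change divided by the square root of its F statistic. It rests on a spread estimated over all libraries of the fit, not only those compared. CPM values are counts per 1000000 of the TMM-scaled library. Near-zero groups are given by ratios of summed counts with exact 95% intervals or a floor of 3 counts, which cover counting error only. Alternatives used DESeq2 1.42.0, limma 3.58.1, log2(TPM + 1), thinning, a replicate block and leaving out each library. The scripts were tested on simulated data.

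Gene lists (25) and their members were chosen with earlier results of these data known. Named genes are the 12 largest rises and 12 largest falls among called genes whose average log2 CPM reached 3 and whose times did not overlap. To these were added the 6 largest called ratio changes each way, with the same average log2 CPM and at least 10 footprint counts per group. Up to 4 members are named per list, called ones with the largest change first, then the highest CPM. The 6 genes with the most footprints at each time and the 4 read-in genes with the highest CPM complete the rule. Of 19941 footprint symbols 19901 matched a RefSeq gene table or its synonyms (GRCm38.p6). A list of 13 transcripts without a coding frame had 0 in the footprint table. Promoters are RefSeq's of that assembly; the genome and protein sequence were not used here. Some genes that met the rule are not reported here.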

Additional observations from a re-analysis of the deposited data

Results flagged for a closer look

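The H2O2 change from 2 h to 7 h differed from the KCl change over the same interval for 14 of the genes named for the largest footprint changes, by a test of the difference itself in the footprint fit (edgeR quasi-likelihood, Benjamini-Hochberg adjusted). The contrast was added after the data were seen. These genes were chosen for a large H2O2 change, which is part of this difference, so the choice favoured large differences. Over all genes the difference was called for 1785 of 10545 (16.9%). Of the genes reported here for the largest changes, Tnfrsf18, Kcnj4, Palm3, Dcaf1, Adamts1, Wisp2, Dlx2 and Cxcl1 were not called for it. On the log2 scale the H2O2 change exceeded that in KCl by 8.50 for Tbc1d8, 10.08 for Rasl11a, 8.87 for Arhgef4, 10.30 for Mab21l3 and 7.62 for Nipal4, fitted values that rest on groups at or near 0 counts and are no bounds. It exceeded it by 6.95 for Jag2, 8.45 for Evpl and 6.89 for Abcb1a. The H2O2 change lay below that in KCl by -8.42 for Eno1b (a copy of Eno1, with 0 counts at 7 h of H2O2), -3.31 for Nog and -2.03 for Adamts5. For Fkbp14 the difference was -3.52, for Arhgap18 -3.34 and for F2rl1 -3.38. Groups of 2 libraries are too small for a check of single outlying libraries.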

How the results depend on the processing

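Calls were recomputed with DESeq2, other factors, no filter, fewer libraries, other scales, thinning, library weights and each library left out. With a further demand of a change of 1 or more in log2, either way, there were 2084 footprint calls, of which 597 were lower. On log2(TPM + 1) 672 genes were called lower. Leaving out a library gave 1828 to 2518 footprint calls, 1225 to 1637 higher and 600 to 960 lower, fewest without a 7 h replicate. Ratio calls were 299 with limma voom and a weight per kind, 322 with only the 8 H2O2 libraries, and 153 to 1418 with a library left out. The other alternatives of the RNA, footprint and ratio counts stayed within 1.5 times the value reported. RNA calls ranged from 8694 to 9819. Of 150 values of single genes, 104 kept direction and side of the threshold, 45 lost their call in at least 1 setting, 1 (Ftl1, 0.82 with only the 4 libraries) gained a call and 1 reversed. Dcaf1 reversed to -0.40 (edgeR adjusted p 0.156) once the entries of its older and current symbol were summed. The cause of the other changes was not tested. Depth limits low genes most, with 1.499 counts per CPM in replicate 1 at 2 h. With the replicate number as a block, 3217 footprint genes were called (1983 higher, 1234 lower), 9819 RNA genes and 818 ratios. Same-numbered libraries at 2 h and 7 h of H2O2 deviated from their group means with r = -0.119, and the other pairs of groups with 2 h of H2O2 with r from -0.376 to -0.048. The 6 pairs among the other 4 footprint groups had r from 0.195 to 0.411. The fit reported has no block because the labels do not say that a replicate number pairs libraries. List counts and medians under each alternative were added after the data were seen.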
